A study of Mus musculus with 16 samples.

Results

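The renin-angiotensin and endothelin genes described here are 8 in number: Agt, Ace, Agtr1a, Atp6ap2, Edn1, Ece1, Ednra and Ednrb. They were taken by symbol, through the RefSeq accession of each array probe, from 21154 genes with a probe, and the brightest probe of a gene stood for it. Every array read all 8 well above background (16 of 16 arrays), so all 8 were among the 14060 genes that passed the filter and were tested. Female mouse ventricles were profiled, each on 1 one-colour Agilent array, in 4 groups of 4 independent mice: 2-week lactating Npr1-/- knockout, nulliparous Npr1-/- knockout, 2-week lactating Npr1+/+ wild-type and nulliparous Npr1+/+ wild-type. Npr1 encodes the guanylyl cyclase receptor for atrial and B-type natriuretic peptide, and the labels describe the knockout as Npr1-/- with no restriction to a cell type. The title of the series places it in work on heart enlargement during lactation when natriuretic peptide signalling is impaired.

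Both systems make a constricting peptide from a longer precursor. In the renin-angiotensin system, angiotensinogen is cut by renin and then by angiotensin-converting enzyme to give angiotensin II, which acts on the AT1 receptor to constrict vessels, retain salt and promote growth of cardiac muscle and matrix. In the endothelin system, big endothelin-1 is cut by endothelin-converting enzyme, and the product constricts through the ETA receptor, whereas the ETB receptor of endothelial cells releases nitric oxide and clears the peptide. Natriuretic peptides acting through Npr1 are known to oppose both.

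The promoters of the 5 genes whose transcripts were higher in lactating than in nulliparous ventricles of 1 or both genotypes are shown because these genes moved in the same direction. Each is the 250 bases before the RefSeq start site in assembly GRCm38.p6, written 5′ to 3′ on the gene's own strand. The Ace window lies at chr11:105967698-105967947 on the plus strand and belongs to the upstream start of the gene. The Atp6ap2 window lies at chrX:12587509-12587758 on the plus strand, and the Ednrb window at chr14:103843702-103843951 on the minus strand. Agt and Ednra are both on chromosome 8, with windows at chr8:124569707-124569956 and chr8:77724453-77724702 on the minus strand. Capitals mark matches, on either strand, to 5 letter patterns: TATAAA (the TATA box), CCAAT (the CCAAT box), GGGCGG (the GC box), TGANTCA (the AP-1 element) and TGACGT (the cAMP response half-site).
Ace: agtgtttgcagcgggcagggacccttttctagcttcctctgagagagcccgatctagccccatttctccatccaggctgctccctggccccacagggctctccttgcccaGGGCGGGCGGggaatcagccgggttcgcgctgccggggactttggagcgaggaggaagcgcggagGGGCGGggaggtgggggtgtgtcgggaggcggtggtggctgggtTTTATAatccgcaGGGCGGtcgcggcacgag
Atp6ap2: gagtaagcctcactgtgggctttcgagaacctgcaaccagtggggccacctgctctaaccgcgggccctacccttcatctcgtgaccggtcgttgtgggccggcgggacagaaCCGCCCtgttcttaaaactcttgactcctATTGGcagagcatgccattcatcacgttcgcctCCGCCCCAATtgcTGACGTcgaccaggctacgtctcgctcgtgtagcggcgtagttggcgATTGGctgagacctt
Ednrb: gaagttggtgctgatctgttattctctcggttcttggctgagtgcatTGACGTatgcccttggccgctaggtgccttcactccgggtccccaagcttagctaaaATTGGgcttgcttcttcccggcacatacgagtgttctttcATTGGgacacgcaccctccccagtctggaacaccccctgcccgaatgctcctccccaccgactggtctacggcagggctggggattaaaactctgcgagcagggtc
Agt: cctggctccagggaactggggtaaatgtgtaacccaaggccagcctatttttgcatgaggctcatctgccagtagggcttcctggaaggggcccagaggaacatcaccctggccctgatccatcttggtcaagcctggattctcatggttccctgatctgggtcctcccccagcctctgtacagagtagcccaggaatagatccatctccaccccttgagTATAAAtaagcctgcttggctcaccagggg
Ednra: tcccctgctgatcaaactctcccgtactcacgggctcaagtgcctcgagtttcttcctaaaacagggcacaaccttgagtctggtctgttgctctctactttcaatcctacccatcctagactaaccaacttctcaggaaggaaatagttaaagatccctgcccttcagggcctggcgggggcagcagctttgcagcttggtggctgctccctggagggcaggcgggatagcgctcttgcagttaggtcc

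The 5 windows differed in the letters they held. Ace had 4 matches to GGGCGG, 2 of them overlapping, and TATAAA on the opposite strand at 31 to 26 bases before the start. Agt had TATAAA on its own strand at 30 to 25 bases before the start and no other match. Atp6ap2 had 3 matches to CCAAT, 2 to GGGCGG, 1 of which overlapped a CCAAT, and 1 to TGACGT. Ednrb had 2 matches to CCAAT and 1 to TGACGT, and Ednra had none of the 5 patterns. Over all 32841 RefSeq windows of the same length, 12.4% held TATAAA, 33.9% CCAAT, 32.7% GGGCGG, 6.8% TGANTCA and 6.5% TGACGT. GC content was 67.2% for Ace, 59.2% for Atp6ap2, 56.8% for Ednrb, 55.6% for Agt and 54.8% for Ednra, against a median of 52.4% over all windows. Windows were found for 7 of the 8 genes, all but Agtr1a. No pattern was shared by all 5.

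Levels are given throughout as log2 of the array's processed signal less the array's 75th percentile, in the order of replicates 1 to 4, so that 0 is the brightness of the 75th percentile probe. They can be compared between arrays for 1 gene, and not between genes, since probes differ in brightness for reasons other than transcript number. The summed level of a list is log2 of the sum of its genes' unlogged levels on an array, so the brightest probes weigh most in it. The 75th percentile itself was 278 to 347 signal units on lactating arrays and 165 to 284 on nulliparous arrays, and 48.2% to 58.6% of the 55681 probes were well above background. The arrays lay on 2 slides, each with 2 arrays of every group. Each group kept its column on both slides, so that column and group cannot be told apart. One library stood apart: nulliparous knockout replicate 4 had a summed level of 10 macrophage markers of 5.50, against 4.499 to 4.92 on the other 3 arrays of its group and 5.62 to 6.08 on the lactating arrays, and results that rest on it are also given without it. The Npr1 probe was above background on 9 of 16 arrays and averaged -3.94 ± 0.27 in lactating knockout, -3.91 ± 0.18 in nulliparous knockout, -3.96 ± 0.50 in lactating wild-type and -4.11 ± 0.36 in nulliparous wild-type ventricles (SD, n = 4 each). At that brightness, and with its place relative to the deleted part not known here, the probe checks neither genotype label.

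**Figure D1:**
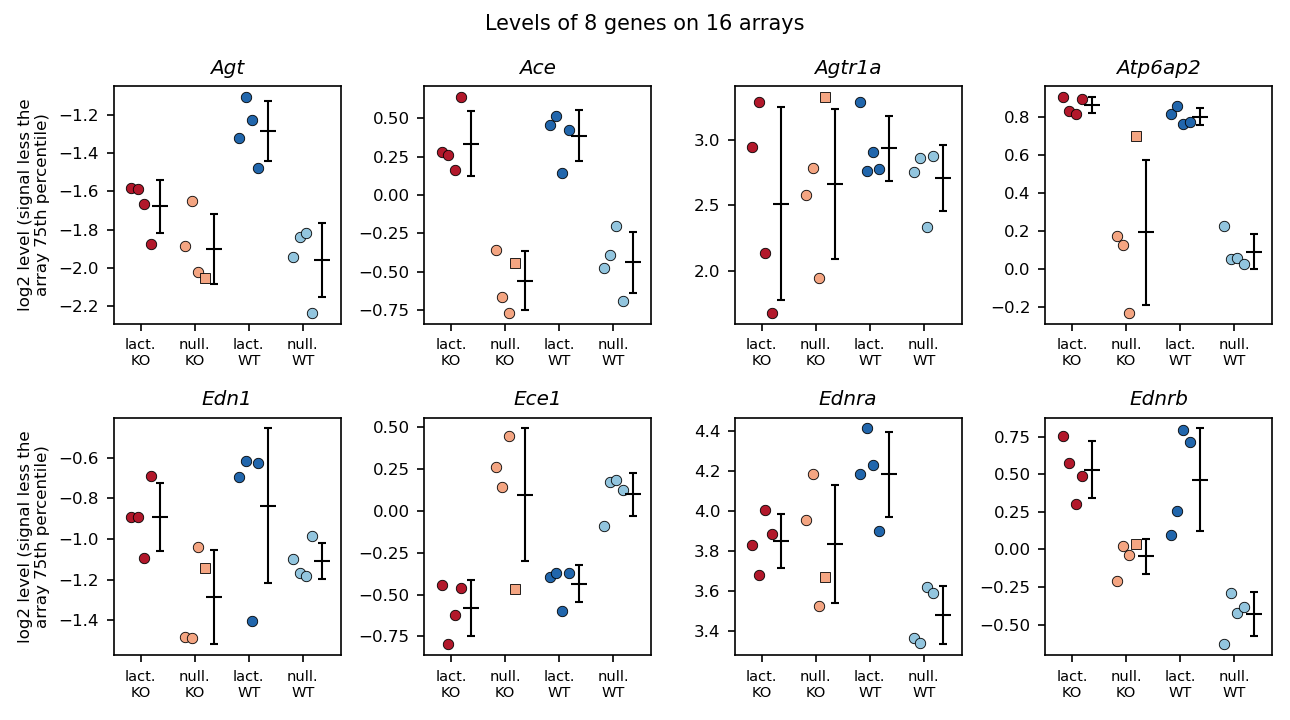
Levels of the 8 genes on the 16 arrays, as log2 signal less the array's 75th percentile (y axis, a separate scale for each gene), by group (x axis; lact., lactating; null., nulliparous; KO, knockout; WT, wild-type). Points are arrays, the square is nulliparous knockout replicate 4, and bars are the mean ± SD of 4 arrays. In Ace, Atp6ap2 and Ednrb all lactating arrays lie above all nulliparous arrays of the same genotype, whereas the Agtr1a groups overlap.

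The main difference was between lactating and nulliparous ventricles. In knockout mice Ace, Atp6ap2 and Ednrb rose in lactation and Ece1 fell, while Agt, Edn1, Ednra and Agtr1a did not pass the test. In wild-type mice the same 4 genes moved in the same directions, and Agt and Ednra rose as well, leaving Edn1 and Agtr1a without a call. The counts were 4 of 8 in knockout and 6 of 8 in wild-type, read against 44.1% and 50.3% of all tested genes, so that in knockout mice the share was near the background. The arrays read whole ventricle, in which fewer cells of a type and less RNA per cell cannot be told apart. In the directions taken separately, 25.5% of tested genes rose and 18.6% fell in knockout, and 31.8% rose and 18.5% fell in wild-type. The median change of the 8 genes was 0.31 in knockout and 0.69 in wild-type, against 0.06 and 0.10 over all tested genes. The lactating and nulliparous arrays did not overlap for 3 genes in knockout and 6 in wild-type, against 33.1% and 47.4% of all genes with a value on every array concerned. A change is the log2 difference between 2 group means, given ± its standard error (SE) from limma, and was called at an adjusted p under 0.05 over all 14060 genes.

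**Figure D2:**
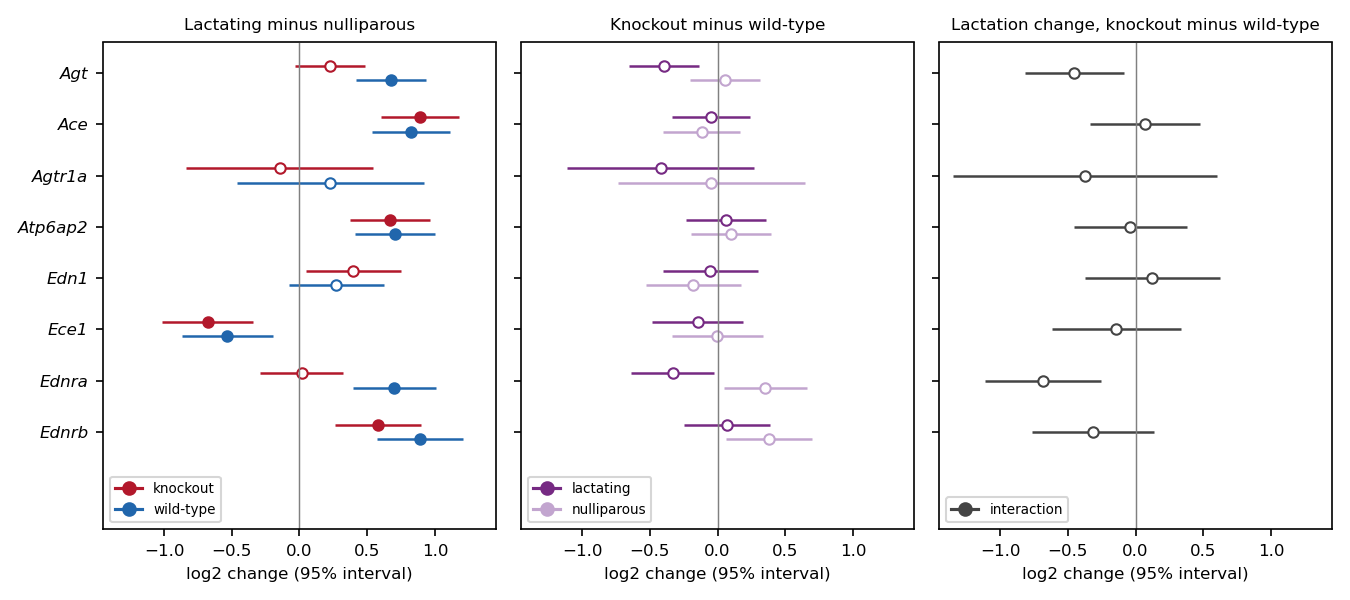
Log2 changes of the 8 genes (x axis) with 95% intervals from limma, for lactating minus nulliparous in each genotype (left), knockout minus wild-type in each state (centre) and the lactation change in knockout minus that in wild-type (right). Filled points passed the adjusted p threshold of 0.05 and open points did not, and all filled points are in the left panel.

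Among the renin-angiotensin genes, Agt encodes angiotensinogen, the sole precursor of the angiotensin peptides, most of which is made in the liver. Its level was -1.59, -1.59, -1.67 and -1.88 in lactating knockout ventricles, against -1.89, -1.65, -2.02 and -2.05 in nulliparous knockout ventricles. In wild-type mice it was -1.32, -1.10, -1.23 and -1.48 in lactating ventricles, against -1.94, -1.84, -1.82 and -2.24 in nulliparous ventricles. All lactating wild-type arrays lay above every other array, while the lactating and nulliparous knockout arrays overlapped. Agt rose by 0.68 ± 0.12 in wild-type (1.60-fold, limma adjusted p = 0.00053), with 0.68 on slide 1 and 0.67 on slide 2. In knockout the difference was 0.23 ± 0.12 (95% interval -0.03 to 0.48, adjusted p = 0.142). With the replicate number, which also stands for slide and row, as a block, that difference passed (adjusted p = 0.0368), and with slide alone as a block it did not (adjusted p = 0.0877). With normexp background correction the wild-type rise was only 0.27 (adjusted p = 0.0267) and the knockout value was -0.02, so the size of the Agt change differed with the processing. That fit also used the median spot signal and an offset of 50, and the part of each step was not tested. Agt lay below the 75th percentile of the signal on every array.

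Ace encodes angiotensin-converting enzyme, a membrane peptidase found mainly on endothelium, which makes angiotensin II and degrades bradykinin. Its level was 0.28, 0.26, 0.16 and 0.64 in lactating knockout ventricles, against -0.36, -0.67, -0.77 and -0.44 in nulliparous knockout ventricles. Wild-type levels were 0.46, 0.52, 0.15 and 0.43 in lactating ventricles, against -0.47, -0.39, -0.20 and -0.69 in nulliparous ventricles. Every lactating array was above 0 and every nulliparous array below it, in both genotypes, and nulliparous knockout replicate 4 lay with its own group. Ace rose by 0.89 ± 0.13 in knockout (1.86-fold, adjusted p = 0.000588) and by 0.83 ± 0.13 in wild-type (1.77-fold, adjusted p = 0.000298). Within slides the rise was 0.78 and 1.00 in knockout and 0.92 and 0.73 in wild-type, slide 1 first.

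Agtr1a encodes the main AT1 receptor of rodents, through which angiotensin II constricts vessels. Its level was 2.94, 3.28, 2.14 and 1.69 in lactating knockout ventricles, against 2.58, 2.79, 1.95 and 3.32 in nulliparous knockout ventricles. The wild-type values were 3.29, 2.76, 2.91 and 2.78 in lactating ventricles, against 2.75, 2.86, 2.34 and 2.87 in nulliparous ventricles. The groups overlapped throughout, and the knockout groups spread the widest of any member, with SDs of 0.73 and 0.57, against 0.25 in each wild-type group. The lactation difference was -0.15 ± 0.32 in knockout (interval -0.84 to 0.54, adjusted p = 0.734) and 0.23 ± 0.32 in wild-type (interval -0.46 to 0.92, adjusted p = 0.582). In knockout it was 0.43 on slide 1 and -0.72 on slide 2, so the 2 slides gave opposite signs. Nulliparous knockout replicate 4 lay 0.89 above the mean of the other 3 arrays of its group. Without it the knockout difference was 0.07 (limma adjusted p = 0.865). The intervals with all arrays leave room for changes as large as those of Ace in wild-type.

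Atp6ap2 encodes the (pro)renin receptor, which binds renin and prorenin and is also an accessory protein of the vacuolar proton pump (V-ATPase). Its level was 0.90, 0.83, 0.82 and 0.89 in lactating knockout ventricles, against 0.17, 0.13, -0.23 and 0.70 in nulliparous knockout ventricles. In wild-type it was 0.81, 0.86, 0.76 and 0.77 in lactating ventricles, against 0.23, 0.05, 0.06 and 0.03 in nulliparous ventricles. The 8 lactating arrays lay close together, and all were above all 8 nulliparous arrays. Of the nulliparous arrays, knockout replicate 4 was the highest, 0.67 above the mean of the other 3 of its group. Atp6ap2 rose by 0.67 ± 0.14 in knockout (1.59-fold, adjusted p = 0.00214) and by 0.71 ± 0.14 in wild-type (1.63-fold, adjusted p = 0.000923). Without nulliparous knockout replicate 4 the rise in knockout was 0.84 (adjusted p = 7.01e-06).

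Of the endothelin genes, Edn1 encodes preproendothelin-1, the precursor of the constricting peptide, made mainly by endothelial cells. Its level was -0.89, -0.89, -1.09 and -0.69 in lactating knockout ventricles, against -1.48, -1.49, -1.04 and -1.14 in nulliparous knockout ventricles. In wild-type it was -0.70, -0.62, -1.40 and -0.63 in lactating ventricles, against -1.10, -1.17, -1.18 and -0.99 in nulliparous ventricles. In each genotype 3 of 4 lactating arrays lay above all nulliparous ones, and in wild-type the remaining array, replicate 3, lay below them all. The difference was 0.40 ± 0.16 in knockout (adjusted p = 0.0631) and 0.27 ± 0.16 in wild-type (adjusted p = 0.183), so neither passed. Both passed with median centring (adjusted p = 0.0114 in knockout and 0.0324 in wild-type) and on slide 1 alone (0.0036 and 0.00763). Neither passed with normexp, which gave 0.18 in knockout and 0.13 in wild-type (limma adjusted p = 0.221 and 0.401). On slide 2 alone the differences were 0.20 and 0.07 (limma adjusted p = 0.722 and 0.885). Without lactating wild-type replicate 3, the difference in wild-type was 0.46 (adjusted p = 0.009), and in the same fit the knockout difference had an adjusted p of 0.0139.

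Ece1 encodes endothelin-converting enzyme 1, the metalloprotease that releases endothelin-1 from its inactive precursor, and it was the member that fell. Its level was -0.44, -0.80, -0.62 and -0.46 in lactating knockout ventricles, against 0.26, 0.14, 0.45 and -0.47 in nulliparous knockout ventricles. In wild-type it was -0.40, -0.37, -0.60 and -0.37 in lactating ventricles, against -0.09, 0.17, 0.18 and 0.13 in nulliparous ventricles. The wild-type groups did not overlap, whereas in knockout the groups overlapped only through nulliparous replicate 4. Ece1 fell by 0.68 ± 0.16 on the log2 scale in knockout (adjusted p = 0.00397) and by 0.53 ± 0.16 in wild-type (adjusted p = 0.0117). Without nulliparous knockout replicate 4 the knockout change was -0.86. Within slides the change was -0.82 and -0.53 in knockout and -0.43 and -0.64 in wild-type, slide 1 first. The wild-type call was lost when arrays were centred on their median (-0.35, adjusted p = 0.0543), on slide 1 alone (adjusted p = 0.0695) and on slide 2 alone (adjusted p = 0.193).

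Ednra encodes the ETA receptor, found on smooth muscle, pericytes, fibroblasts and cardiomyocytes, which mediates constriction and growth. Its level was 3.83, 3.68, 4.01 and 3.88 in lactating knockout ventricles, against 3.95, 4.18, 3.53 and 3.67 in nulliparous knockout ventricles. In wild-type it was 4.19, 4.41, 4.23 and 3.90 in lactating ventricles, against 3.37, 3.34, 3.62 and 3.59 in nulliparous ventricles. The wild-type groups were fully separated, and the lactating and nulliparous knockout arrays were intermixed. Ednra rose by 0.70 ± 0.14 in wild-type (1.62-fold, adjusted p = 0.00123), with 0.94 on slide 1 and 0.46 on slide 2. In knockout the difference was 0.02 ± 0.14 (interval -0.29 to 0.32, adjusted p = 0.939), made up of -0.31 on slide 1 and 0.34 on slide 2. The upper end of that interval lies below the lower end of the wild-type interval, 0.40, and the test of the difference between genotypes is given further on.

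Ednrb encodes the ETB receptor, best known on endothelial cells. Its level was 0.75, 0.58, 0.30 and 0.49 in lactating knockout ventricles, against -0.21, 0.02, -0.04 and 0.04 in nulliparous knockout ventricles. Wild-type arrays gave 0.09, 0.25, 0.79 and 0.71 in lactating ventricles, against -0.63, -0.29, -0.42 and -0.38 in nulliparous ventricles. Every lactating array lay above all nulliparous arrays of both genotypes, and the nulliparous knockout arrays lay above the nulliparous wild-type ones. Ednrb rose by 0.58 ± 0.15 in knockout (1.49-fold, adjusted p = 0.00691) and by 0.89 ± 0.15 in wild-type (1.86-fold, adjusted p = 0.000339). Within slides it was 0.76 and 0.39 in knockout and 0.63 and 1.15 in wild-type, slide 1 first. Ednrb was the one member read by a second, dimmer probe, which gave differences in the same directions, 0.38 in knockout and 1.10 in wild-type.

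Loss of Npr1 gave no call among the 8 genes by limma in either state, where 0.0996% of all tested genes were called in nulliparous and 0.199% in lactating mice. At an unadjusted p under 0.05 there were 2 members in each state, against 1213 of 14060 genes in nulliparous and 1283 in lactating mice. In nulliparous mice Ednra was higher in knockout by 0.35 ± 0.14 (95% interval 0.05 to 0.66, adjusted p = 0.536) and Ednrb by 0.38 ± 0.15 (interval 0.07 to 0.70, adjusted p = 0.527), and Ednrb was the one member whose nulliparous genotypes did not overlap, against 4.04% of all genes. In lactating mice Agt was lower in knockout, -0.40 ± 0.12 (interval -0.65 to -0.14, adjusted p = 0.269), with no overlap between genotypes, against 7.77% of all genes. Ednra was also lower there, -0.33 ± 0.14 (interval -0.64 to -0.03, adjusted p = 0.501). The other members had intervals that included 0 in both states. With array weights, limma called Ednra in nulliparous mice (0.58, adjusted p = 0.0352), where that fit called 235 genes, against 14 without weights.

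The lactation change was then compared between genotypes with the interaction term, which called none of the 8 genes and 0.0925% of all genes. Ednra had the interval farthest from 0, with an interaction of -0.68 ± 0.20 (95% interval -1.12 to -0.25, adjusted p = 0.567). Agt followed with -0.45 ± 0.17 (interval -0.82 to -0.09, adjusted p = 0.685), so 2 members had an unadjusted p under 0.05, against 896 of 14060 genes. With array weights Ednra was called (-0.90, adjusted p = 0.0442). The Ednra term was -1.26 on slide 1 and -0.11 on slide 2. For Ace the term was 0.07 ± 0.19 (interval -0.34 to 0.47) and for Atp6ap2 -0.04 ± 0.20 (interval -0.46 to 0.38).

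**Figure D3:**
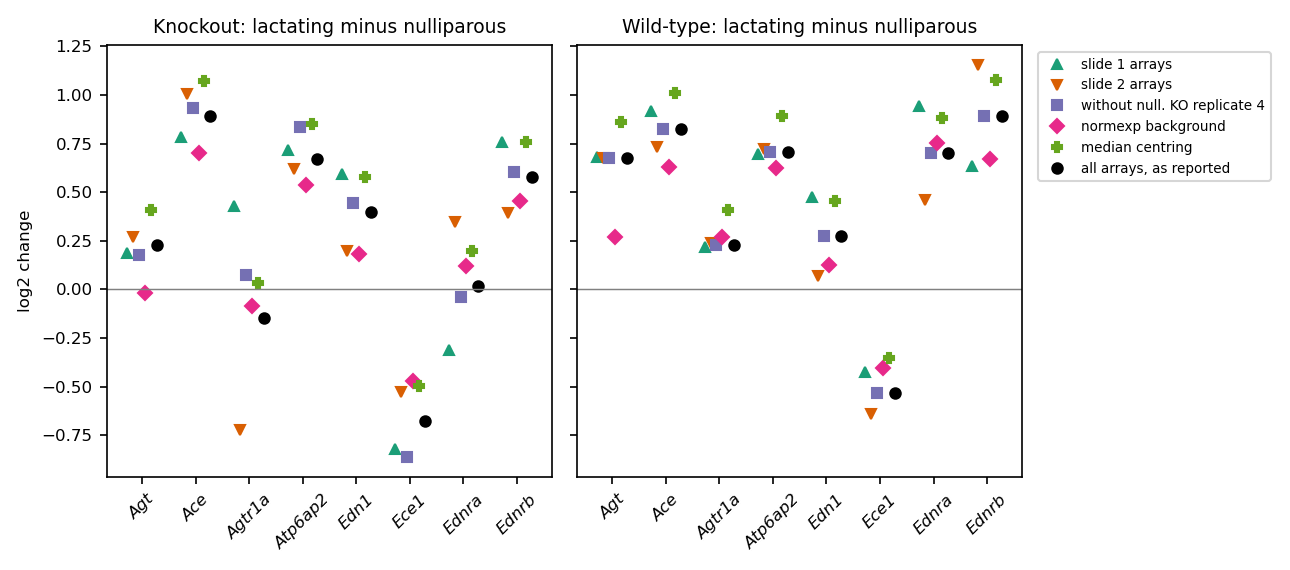
Log2 lactation change of the 8 genes (y axis) in knockout (left) and wild-type (right) with all arrays (black circles), on each slide alone, without nulliparous knockout replicate 4, with normexp background correction and with median centring. The Ace, Atp6ap2, Ednrb and Ece1 points stay on one side of 0 in both panels, while Agt, Ednra and Agtr1a in knockout fall on both sides.

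Marker lists of cell types were read beside the members, against 44.1% of all genes called in knockout and 50.3% in wild-type. Of 10 macrophage markers, 9 rose in knockout and 8 in wild-type and none fell, and their summed level was 5.83 to 6.08 in lactating against 4.499 to 5.50 in nulliparous knockout, and 5.62 to 5.83 in lactating against 4.66 to 4.91 in nulliparous wild-type ventricles. Among the knockout calls, Fcgr1 was above background on 2 of 4 nulliparous arrays, and its change was 0.02 with normexp (limma adjusted p = 0.889). Of 7 smooth muscle markers, 5 fell in knockout and 3 in wild-type and none rose, with sums of 6.98 to 7.12 in lactating against 7.21 to 7.70 in nulliparous knockout, and 6.86 to 7.48 in lactating against 7.03 to 7.56 in nulliparous wild-type ventricles. These stand beside the rise of Ednra in wild-type. Of 12 endothelial markers, 3 rose and 3 fell in knockout and 2 rose and 3 fell in wild-type. Of all tested genes, 25.5% rose and 18.6% fell in knockout, and 31.8% rose and 18.5% fell in wild-type. The endothelial sums were 8.82 to 9.12 in lactating against 9.06 to 9.29 in nulliparous knockout, and 8.69 to 9.15 in lactating against 9.02 to 9.18 in nulliparous wild-type ventricles, beside higher Ace and Ednrb. Of 10 fibroblast markers, 5 rose in knockout (6 rose and 2 fell without nulliparous knockout replicate 4), and 4 rose and 1 fell in wild-type. Their median change was 0.45 in knockout and 0.34 in wild-type. The sums, in which the brightest markers weigh most, did not follow these medians. They were 8.89 to 9.12 in lactating against 8.94 to 9.23 in nulliparous knockout, and 8.861 to 8.998 in lactating against 8.97 to 9.16 in nulliparous wild-type ventricles. Of 10 cardiomyocyte markers, 2 rose and 6 fell in knockout (7 fell without nulliparous knockout replicate 4), and 3 rose and 3 fell in wild-type. Of 8 pericyte markers, 2 rose and 1 fell in knockout and 2 rose and 2 fell in wild-type. Of 5 atrial markers, 1 rose and 3 fell in knockout and 1 rose and 2 fell in wild-type. Of 3 epicardial and mesothelial markers, 1 rose in knockout (3 without nulliparous knockout replicate 4) and 3 in wild-type. The list held 6, of which these 3 passed the filter. Of the 4 nulliparous wild-type arrays, Msln was above background on 0, and Tbx18 and Wt1 on 3 each. In wild-type they thus met the filter only on the lactating side. The Tbx18 change there was 0.21 with normexp (limma adjusted p = 0.125), while Msln and Wt1 kept their calls. The sums of the 3 markers were 1.95 to 2.17 in lactating against 1.07 to 1.73 in nulliparous knockout ventricles. Lactating wild-type ventricles gave 1.51 to 2.83, with replicate 3 the highest, and nulliparous wild-type replicates 1, 2 and 4 gave 0.21, 0.45 and 0.96. Nulliparous wild-type replicate 3 had no usable value of Wt1, the brightest of these markers, so its sum of -3.47 cannot be compared with the others. All markers of the endothelial, fibroblast, cardiomyocyte and macrophage lists passed the filter, and their part in the results was not tested.

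The other genes of the renin-angiotensin system were described from a list of 28, of which 19 passed the filter. In knockout 6 rose, 1 fell and 12 were not called, and in wild-type 6 rose, 2 fell and 11 were not called, with medians of 0.25 and 0.05. Of all tested genes, 44.1% were called in knockout and 50.3% in wild-type, with medians of 0.06 and 0.10. Without nulliparous knockout replicate 4, 8 of the 19 listed genes rose and 3 fell in knockout. Mas1, the receptor for angiotensin-(1-7), had the largest fall in both genotypes, -1.57 ± 0.22 in knockout (adjusted p = 0.000524) and -1.80 ± 0.22 in wild-type (adjusted p = 8.84e-05), and -1.04 and -1.11 after normexp correction. Atp6ap1, another accessory subunit of the V-ATPase, rose by 1.08 ± 0.25 in knockout (adjusted p = 0.00366) and by 1.19 ± 0.25 in wild-type (adjusted p = 0.00135). Nr3c2, the mineralocorticoid receptor that aldosterone binds, fell by 1.49 ± 0.29 in wild-type (adjusted p = 0.000981; -0.89 with normexp).

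Calls of 2 dim genes of this list were lost with normexp correction. Cma1, a mast cell chymase that can make angiotensin II, had a change of 2.01 ± 0.53 in knockout (adjusted p = 0.00744), with the probe above background on 1 of 4 nulliparous arrays and a change of -0.02 after normexp (adjusted p = 0.866). It was also the 1 called gene among 6 mast cell markers in knockout (2 were called without nulliparous knockout replicate 4), and none was called in wild-type. Mme, neprilysin, which degrades natriuretic peptides, angiotensins and endothelin, had a change of 0.66 ± 0.27 in wild-type (adjusted p = 0.0497), which became -0.03 with normexp and lost its call in 10 of 16 fits that left out an array. Agtr1b, Agtr2, Mrgprd, Kng1, Kng2 and Bdkrb2 were above background on 0 of 16 arrays, and Ctsg, Bdkrb1 and Cyp11b2 on 4, 1 and 1, and these 9 genes were not tested.

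Of 13 other endothelin genes, 9 passed the filter. In knockout 2 rose and 1 fell, and in wild-type 2 rose, with medians of 0.09 and 0.18. The share called over all tested genes was 44.1% in knockout and 50.3% in wild-type, with medians of 0.06 and 0.10. Adm, which encodes the dilator peptide adrenomedullin, rose by 0.97 ± 0.17 in knockout (adjusted p = 0.000879) and by 0.72 ± 0.17 in wild-type (adjusted p = 0.00275). Nos3, the endothelial nitric oxide synthase that acts downstream of the ETB receptor, fell by 0.37 ± 0.13 in knockout (adjusted p = 0.0295), a call that 4 of 16 fits leaving out an array did not keep, and that normexp also ended (adjusted p = 0.0536). The remaining calls, Cma1 in knockout and Mme in wild-type, are the dim genes above. Without nulliparous knockout replicate 4 the knockout counts were 3 and 2. The other endothelin peptide genes, Edn2 and Edn3, were above background on 4 and 0 arrays and were not tested.

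Atp6ap2 could be set beside the pump it belongs to, since all 14 listed V-ATPase subunit genes passed the filter. In knockout 9 rose, 1 fell and 4 were not called (11 rose and 2 fell without nulliparous knockout replicate 4), and in wild-type 11 rose and 3 were not called. Their median change was 0.61 in knockout (0.78 without nulliparous knockout replicate 4) and 0.76 in wild-type, against 0.67 and 0.71 for Atp6ap2 itself. Over all tested genes 44.1% were called in knockout and 50.3% in wild-type, with medians of 0.06 and 0.10. Atp6v1b2, a subunit of the catalytic head, rose by 1.08 ± 0.17 in knockout (adjusted p = 0.000645) and by 1.30 ± 0.17 in wild-type (adjusted p = 9.93e-05). Atp6v1h rose by 1.01 ± 0.20 in knockout and by 1.38 ± 0.20 in wild-type, and Atp6v0e, of the membrane sector, by 0.77 ± 0.15 and 1.01 ± 0.15. The 1 that fell was Atp6v1f, -0.21 ± 0.06 in knockout (adjusted p = 0.0136), which was not called after normexp (adjusted p = 0.212). The summed level of the 14 was 7.996 to 8.068 in lactating against 7.59 to 7.96 in nulliparous knockout, and 7.98 to 8.20 in lactating against 7.62 to 7.69 in nulliparous wild-type ventricles. In nulliparous knockout the highest array was replicate 4, as for Atp6ap2, and the macrophage marker sums ran in the same direction.

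**Figure D4:**
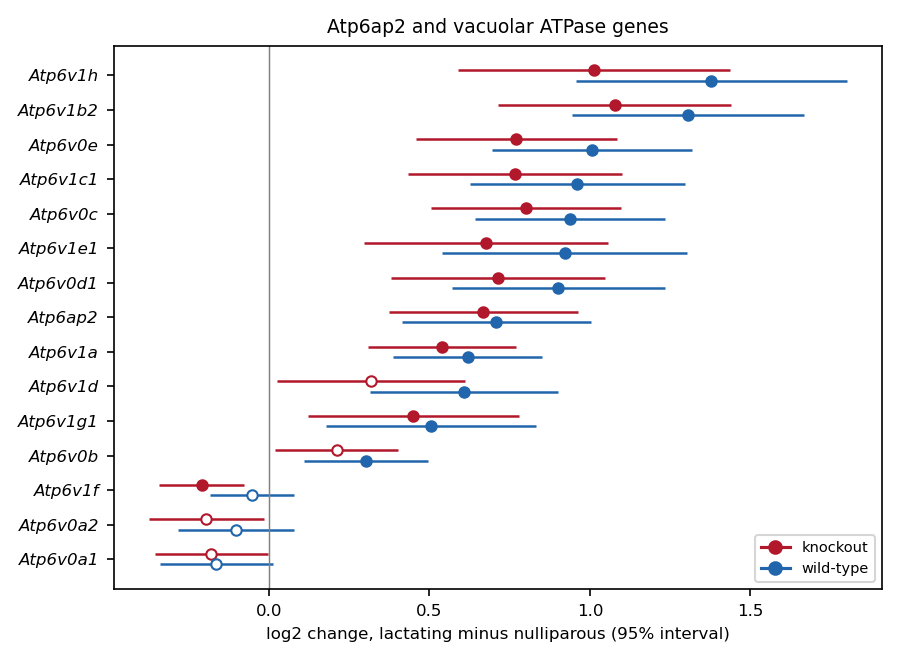
Log2 lactation change (x axis, with 95% intervals from limma) of Atp6ap2 and 14 V-ATPase subunit genes in knockout (upper of each pair) and wild-type (lower). Filled points passed an adjusted p of 0.05 and open points did not. Atp6ap2, at 0.67 and 0.71, lies within the spread of the subunits, and Atp6v1f, Atp6v0a2 and Atp6v0a1 lie below 0.

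Genes that carry the signal of the AT1, ETA and ETB receptors were described from a list of 50, of which 48 passed the filter. In knockout 12 rose and 10 fell (15 and 13 without nulliparous knockout replicate 4), and in wild-type 14 rose and 13 fell. The calls thus went both ways, with medians of -0.01 and -0.07, against 0.06 and 0.10 over all tested genes. Of all tested genes 44.1% were called in knockout and 50.3% in wild-type, shares near those of the list. Rcan1, a calcineurin regulator whose transcript is induced by calcineurin and NFAT, rose by 1.65 ± 0.34 in knockout (adjusted p = 0.00209) and by 2.48 ± 0.34 in wild-type (adjusted p = 0.000123). Prkcd, a protein kinase C isoform, rose by 1.19 ± 0.16 in knockout and by 1.43 ± 0.16 in wild-type (adjusted p = 5.93e-05). Rgs2, which shortens Gq signalling, fell by 1.25 ± 0.19 in knockout (adjusted p = 0.000604) and by 1.03 ± 0.19 in wild-type. Itpr2, the main inositol trisphosphate receptor of cardiomyocytes, fell by 1.35 ± 0.19 in knockout and by 0.94 ± 0.19 in wild-type. Nfatc1, a calcineurin-dependent transcription factor, fell by 0.95 ± 0.18 in knockout (limma adjusted p = 0.0013) and by 1.27 ± 0.18 in wild-type (adjusted p = 0.000133). Gna12, a G protein alpha subunit, rose by 1.49 ± 0.26 in knockout and 2.07 ± 0.26 in wild-type, but only by 0.45 and 0.65 with normexp, and its probe was above background on 2 of 4 nulliparous wild-type arrays. No gene of these 4 pathway lists was called for knockout against wild-type in either state or for the interaction.

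The genes nearest to each member over the 16 arrays were found by the root mean square (RMS) difference of log2 levels, each gene centred on its mean. For Atp6ap2, whose own RMS deviation was 0.387, they were Fbxw11 (0.06) and Rac1 (0.0677). Ece1, with an own deviation of 0.366, lay nearest to Pkn2 (0.0958) and Espnl (0.111). Ace (own deviation 0.463) had Ccdc80 (0.17) and Rgs5 (0.179), Rgs5 being a gene of the signalling list that rose by 0.84 in knockout and 0.77 in wild-type. Ednrb (0.435) had Plpp1 (0.181) and Eif4e2 (0.182), and Ednra (0.305) had Rbpms (0.161) and Pdpk1 (0.166). For Agt (0.304) the nearest were Hacd2 (0.133) and Krtap5-5 (0.134), and for Edn1 (0.276) Higd1b (0.146) and Ptdss1 (0.164). Agtr1a (0.455) had the least close neighbours, Cnpy2 (0.305) and Kcnn2 (0.311). These distances describe the pattern over arrays that share slides and groups, and they carry no test.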

How the data were processed

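Total RNA of the ventricles of 16 mice (200 ng each, per the labels' protocols) was labelled with Cy3 and hybridised to one-colour arrays. The authors deposited 1 scanner table per array, made by Agilent Feature Extraction (version 10.7.3.1 in the submitters' processing notes). Its processed signal is a linear intensity, per the file headers, from which local background was subtracted and spatial trend removed, with no scaling across arrays. A second deposited table holds log2 values, made by the authors, whose scale, centring and direction are not given in the sources used here. Over 24444 probes each column correlated with the scanner values at r = 1 once these were scaled to the 75th percentile and centred on the nulliparous wild-type mean. Its median differences ran from -0.0187 to 0.0261 and its column medians from -0.382 to 0.0318, so none of the 3 stays unknown.

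Control spots and outlier values were left out, and 59305 spots were averaged into 55681 probes, of which 28026 were named through RefSeq accessions. The signal was divided by the array's 75th percentile and log2 was taken. The filter asked that a gene's brightest probe exceed background clearly on every array of 1 or more groups; it kept 14060 genes and removed 7094. No probe was saturated. A model of 4 group means over 16 arrays was fitted with limma 3.58.1 (lmFit, contrasts.fit, eBayes) in R 4.3.3. P-values were adjusted over the 14060 genes by Benjamini-Hochberg, called under 0.05. Fits were tested on simulated data.

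The members, lists and rules were chosen with earlier results of these data known. Named genes were the 8 members, Npr1, up to 4 called genes with the largest change per list and lactation comparison, and the 2 nearest genes of each member. A gene that this rule takes is not reported here. Values printed for a listed gene in the other genotype, and those of Atp6v1f, Atp6v0a1, Atp6v0a2, Msln, Tbx18, Wt1 and Fcgr1, were added after they were seen. Alternatives were normexp (offset 50, on the median spot signal, since the files hold no mean), quantile normalization, median centring, other filters, the mean of a gene's probes, array weights, replicate and slide blocks, each slide alone, the deposited log2 table and leaving out each array. Figures were drawn with matplotlib 3.10.9.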

Additional observations from a re-analysis of the deposited data

Results flagged for a closer look

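Lactating wild-type replicate 3 was marked as a low outlier of its group for 2 of the 8 genes. For Edn1 its level was -1.40, and its gap to the nearest array was 0.902 of the range of the group. For Ece1 its level was -0.60, with a gap of 0.888 of the range. The Ece1 gap was small on the log2 scale, since the other 3 arrays lay close together at -0.40, -0.37 and -0.37. Both exceed Dixon's 95% critical value for 4 samples. In all, 32 groups of arrays were tested, and chance marks about 1 group in 20. Without that array Edn1 passed the test in wild-type (0.46, adjusted p = 0.009). The summed level of 3 epicardial and mesothelial markers on it was 2.83, against 1.51 to 1.63 on the other 3 arrays of its group, and their part in the result was not tested.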

How the results depend on the processing

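All 10 lactation calls of the 8 genes kept their direction and their adjusted p under 0.05 when any single array was left out. The number of members called ran from 4 to 5 in knockout and from 6 to 7 in wild-type over those fits, and was 0 for the genotype and interaction terms. On slide 2 alone, with 2 arrays a group, 0 members were called in knockout and 1 in wild-type, where only 4 and 81 genes were called in all. Array weights called 1 member (Ednra) in nulliparous knockout against wild-type, 0.58, and 1 in the interaction, -0.902.

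Replicate numbers were checked for pairing: the deviations of the 24 pairs of same-numbered arrays correlated at -0.139 to 0.176 (median 0.0305), 8 of them over 0.1. Pairs with different numbers, of which there were more, ran from -0.283 to 0.246 (median -0.01). Of the 16 arrays, 8 correlated best on average with arrays of their own number, out of 4 numbers, and this count was not tested. The number also stands for the slide and the row on it, in every group, and no label ties it to animals. With the replicate block 6185, 7073, 9, 27 and 9 genes were called, for lactation in knockout and in wild-type, genotype in nulliparous and in lactating mice, and the interaction, against 6203, 7070, 14, 28 and 13, and 5 members in knockout, Agt being added (adjusted p = 0.0368). Median centring moved the split to 5305 higher and 1395 lower in knockout and to 6056 and 1487 in wild-type, against 3591 and 2612, and 4467 and 2603; the median change of all genes became 0.242 and 0.284. With no filter, 4304 rose and 5060 fell in wild-type. Array weights called 235, 204 and 70 genes for the 2 genotype comparisons and the interaction; leaving out arrays gave 7 to 20, 13 to 48 and 10 to 19. Agt in knockout was also called with quantile normalization and median centring (adjusted p = 0.0391 and 0.0152), and Edn1 in knockout with quantile, median centring, array weights and slide 1 alone.

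Values that changed sign were all of differences that were not called, and the cause was not tested. For lactation in knockout, Agt was -0.021 with normexp. Agtr1a was 0.034 with median centring, 0.430 on slide 1 and -0.404 to 0.128 leaving out arrays. Ednra was -0.022 with quantile normalization, -0.128 with array weights, -0.313 on slide 1 and -0.087 to 0.132 leaving out arrays. For knockout against wild-type in nulliparous mice, Agt was -0.011 on slide 2 (-0.036 to 0.106 leaving out arrays), Agtr1a 0.028 with median centring and 0.030 on slide 2 (-0.267 to 0.191), Atp6ap2 -0.067 to 0.242 leaving out arrays, and Ednra -0.006 on slide 2. Ece1 was 0.004 with quantile, 0.071 with median centring, 0.127 with weights, 0.162 on slide 1 and 0.015 in the deposited table (-0.119 to 0.186 leaving out arrays). In lactating mice, Ace was 0.021 with median centring and 0.115 on slide 2 (-0.152 to 0.007), Agtr1a 0.089 on slide 1, and Edn1 0.017 with median centring and 0.124 on slide 2 (-0.245 to 0.017). Ednrb was -0.076 as the mean of its probes and -0.358 on slide 2 (-0.057 to 0.177). For the interaction, Ace was -0.136 on slide 1 (-0.034 to 0.15), Agtr1a 0.210 on slide 1, Atp6ap2 0.030 with weights and 0.021 on slide 1 (-0.181 to 0.128), Edn1 -0.066 to 0.206 leaving out arrays, Ednrb 0.127 on slide 1 and Ece1 0.111 on slide 2.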
